A study of Mus musculus with 12 samples.

Results

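Inguinal white fat was compared with epididymal white fat within Mgl2-DTR mice, as inguinal minus epididymal, on 2 arrays of each depot. These are 4 of the 12 arrays of the series. All 22180 genes with a probe that carries a single gene symbol entered the comparison, each through its brightest probe, and 12710 of them passed the filter on dim genes and were tested. In Mgl2-DTR mice the Mgl2 locus, which encodes the lectin CD301b, drives a receptor for diphtheria toxin, and the toxin then kills mononuclear phagocytes with CD301b on their surface. The mice were males on the C57BL/6N background, and the other genotype was wild-type C57BL/6N males of matched age. The age itself is not given in the sources used here. Every mouse of both genotypes received 500 ng of diphtheria toxin per dose into the abdomen every 3 days, and tissue was taken on day 10. The 4 wild-type fat arrays, 2 per depot, serve for comparison with the depot difference of Mgl2-DTR mice and, like the 4 liver arrays, enter the estimate of spread that the calls rest on. Nothing in the labels says that replicates came from separate animals beyond naming them as mice, so the spread that the p-values rest on may be technical.

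Fat depots arise from different parts of the embryo, and their cells keep a positional code of transcription factors of the Hox and T-box families into adult life. Epididymal fat lies inside the abdominal cavity, is covered by mesothelium and is attached to the epididymis, the duct that stores sperm. Inguinal fat lies under the skin against the muscles of the hind limb, surrounds a lymph node, and holds white adipocytes that can turn beige, that is, take on the heat-producing program of brown fat. Macrophages of both depots clear dying adipocytes and store their lipid.

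Values are normalized log2 levels, so a difference of 1 is a change of 2-fold, and differences are given with their standard error (SE). The median level of an array lay between 5.19 and 5.28, and 5.71, the median over all single-symbol probes and arrays, was used as the floor of the filter on dim genes. A level under this floor may be background. Mgl2 itself read 4.25 and 4.19 on the epididymal and 4.12 and 4.72 on the inguinal Mgl2-DTR arrays, against 7.46 and 7.22 in epididymal and 7.07 and 7.36 in inguinal wild-type fat. All 4 Mgl2-DTR arrays were thus under the floor for Mgl2 and all 4 wild-type arrays above it. Between the depots of Mgl2-DTR mice it differed by 0.20 (SE 0.24, limma adjusted p = 0.694). Adipocyte genes were high on all 4 arrays: Fabp4, the fatty acid carrier of adipocytes, read 13.39 and 13.25 in epididymal and 13.32 and 13.34 in inguinal fat.

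The arrays of epididymal replicate 2 and inguinal replicate 1 stood apart. The 29 tested genes of the epididymal duct had a mean level of 10.75 on epididymal replicate 2 and between 5.22 and 5.55 on the other 7 fat arrays, though 20 of them passed the filter through epididymal fat alone. Gpx5, a secreted peroxidase of the duct, read 3.59 and 12.74 in epididymal and 3.94 and 3.90 in inguinal fat. Keratins, adhesion molecules and other epithelial genes were raised on the same array, with a list mean of 7.84 against 6.08 on epididymal replicate 1. The 32 tested skeletal muscle genes had a mean level of 5.51 and 5.53 in epididymal fat, 8.83 on inguinal replicate 1 and 6.30 on inguinal replicate 2. Myh4, the myosin of fast muscle fibres, read 3.55 and 4.06 in epididymal and 11.86 and 7.13 in inguinal fat, so inguinal replicate 2 also lay above both epididymal arrays. In wild-type mice the muscle genes were high on inguinal replicate 2, with a mean of 8.95. These arrays were kept, and the results are given by array. In bulk tissue, fewer cells of a type and less RNA per cell cannot be told apart.

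**Figure D1:**
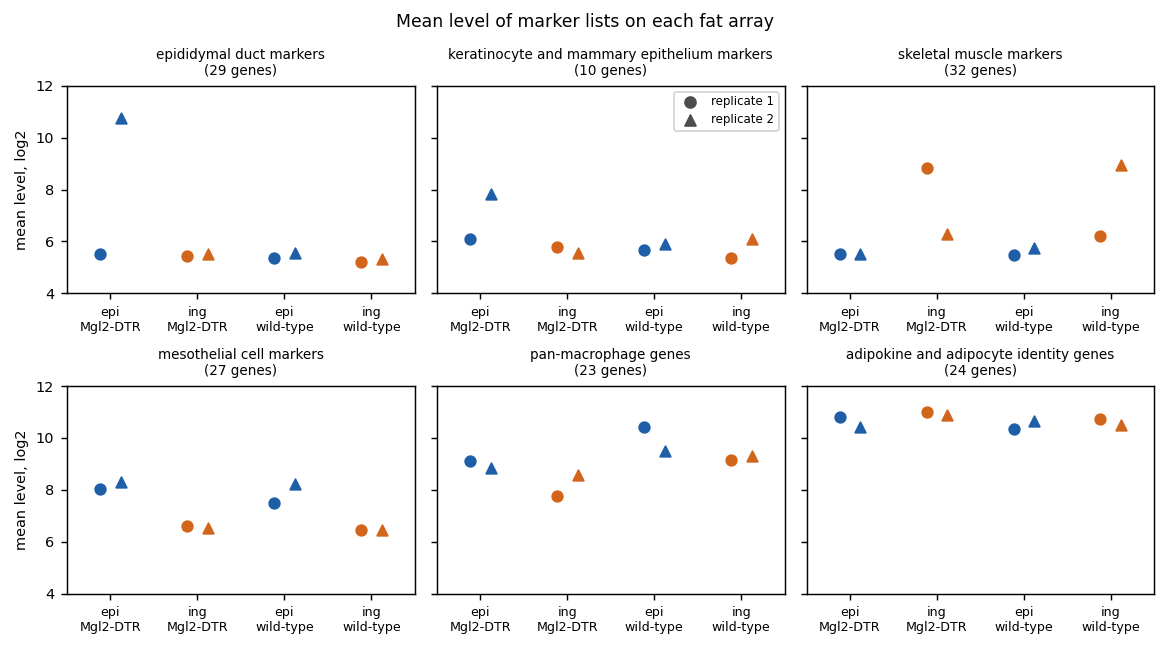
Mean log2 level of the tested members of 6 marker lists (y axis) on each of the 8 fat arrays, grouped by depot (epi, epididymal; ing, inguinal) and genotype, with circles for replicate 1 and triangles for replicate 2. Duct genes stand at 10.75 on epididymal Mgl2-DTR replicate 2 and muscle genes at 8.83 on inguinal Mgl2-DTR replicate 1, while mesothelial genes are higher on both epididymal than on both inguinal Mgl2-DTR arrays.

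The depots differed in 249 of the 12710 tested genes (1.96%) at a limma adjusted p under 0.05, with 114 higher (0.897%) and 135 lower (1.06%) in inguinal fat. At an unadjusted p under 0.05 the count was 2233 (17.6%). In all 249 genes both inguinal arrays lay on 1 side of both epididymal arrays, as they did in 52.8% of all tested genes, and 187 differed by at least 2-fold. For 38 of the higher genes the epididymal mean, and for 71 of the lower genes the inguinal mean, lay under the floor. Scaling moved the balance of directions: with cyclic loess within each tissue 85 genes were higher and 160 lower. The median difference over all tested genes was then -0.01, against 0.07 with the deposited scaling.

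The number of genes called depended on which arrays were kept. It was 528 without epididymal replicate 1, 95 without epididymal replicate 2, 74 without inguinal replicate 1 and 76 without inguinal replicate 2 of the Mgl2-DTR mice. It was 539 without either epididymal wild-type array, 158 without either inguinal wild-type array, 150 without either wild-type liver array and 140 without either Mgl2-DTR liver array, which enter only through the estimate of spread. Without both the duct-bearing and the muscle-bearing array it was 35, of which 30 were among the 249. All 84 called genes named by the rule kept their direction in each of these fits. The call of 16 was lost without epididymal replicate 1, of 41 without epididymal replicate 2, of 46 without inguinal replicate 1, of 46 without inguinal replicate 2 and of 65 without both arrays that stood apart. For 13 of them a call was kept in every alternative run that included the gene. Of these, Tbx15, Shox2, Il1r2, Cox8b, Cidea and Cdh19 were higher in inguinal fat. Col6a5, Upk1b, Upk3b, Pkhd1l1, Lrp2, Hspb7 and Cabcoco1 were lower.

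The genes higher in inguinal fat with the widest separation of arrays were led by Tbx15, a T-box transcription factor of limb and trunk mesenchyme. Tbx15 read 4.0 and 3.88 in epididymal and 7.5 and 7.45 in inguinal fat, a difference of 3.53 (SE 0.15, limma adjusted p = 1.55e-05). Both epididymal values lay under the floor and both inguinal values were nearly equal. Mmp3, a matrix metalloproteinase also called stromelysin, read 4.10 and 4.40 against 7.48 and 8.85 (3.91, SE 0.38). Pon1, a lipoprotein-bound esterase, read 5.03 and 4.81 against 7.86 and 8.23 (3.12, SE 0.42). Il1r2, the decoy receptor that binds interleukin-1 without signalling, read 4.32 and 4.09 against 7.07 and 7.32 (2.99, SE 0.18). For these 3 genes both epididymal arrays were under the floor and both inguinal arrays above it. Cyp2f2, a cytochrome P450, was well above the floor in both depots, at 8.42 and 8.79 against 11.40 and 11.88 (3.03, SE 0.33). Its next brightest probe gave 1.46. Pon1 lost the call without inguinal replicate 2 (adjusted p = 0.0645).

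Zfhx4, a large zinc finger and homeobox factor, read 6.76 and 6.60 in epididymal and 9.27 and 9.0 in inguinal fat (2.46, SE 0.21). Cxcl14, a chemokine of stromal cells, read 6.98 and 7.65 against 9.39 and 9.80 (2.28, SE 0.26). The depots did not overlap for either gene, and neither was under the floor on any of the 4 arrays. The other 7 genes of this group were under the floor on both epididymal arrays. Of these, H2-M9, a non-classical MHC class I gene, read 4.81 and 4.04 against 6.89 and 6.62 (2.33, SE 0.29). Lncbate1, a long non-coding RNA of brown adipocytes, read 5.02 and 4.74 against 7.09 and 6.88 (2.10, SE 0.19). Drp2, a dystrophin-related protein of myelinating Schwann cells, read 4.85 and 4.95 against 6.83 and 7.04 (2.03, SE 0.21). Cidea, Cox8b, Cdh19 and Hoxc10 complete the group and are described with their families.

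**Figure D2:**
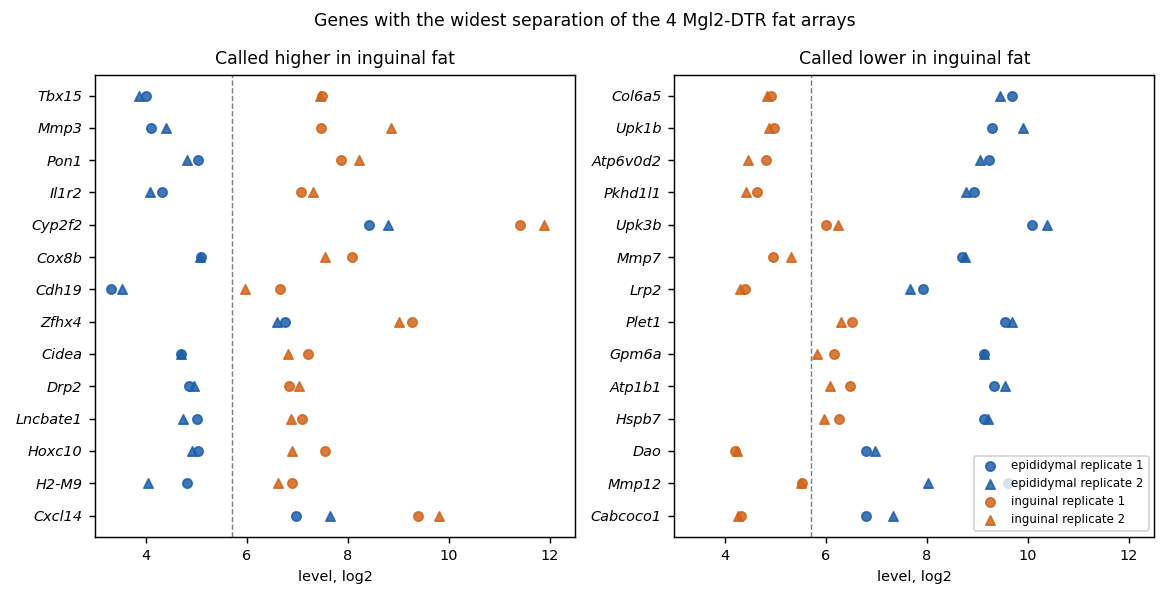
Log2 level (x axis) on each of the 4 Mgl2-DTR fat arrays of the 14 called genes per direction with the widest gap between the depots, blue for epididymal and orange for inguinal fat, with a dashed line at the floor of 5.71. In every gene shown the depots are apart, and Col6a5 at 9.68 and 9.45 against 4.91 and 4.83 has the widest gap.

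The largest differences were among the genes lower in inguinal fat. Col6a5, a chain of the beaded-filament collagen VI, read 9.68 and 9.45 in epididymal and 4.91 and 4.83 in inguinal fat, a difference of -4.69 (SE 0.28, adjusted p = 0.000155). Both inguinal values lay under the floor, and the epididymal values were alike, that of the duct-bearing array included. Atp6v0d2, a proton pump subunit of osteoclasts and lipid-laden macrophages, read 9.24 and 9.04 against 4.81 and 4.45 (-4.51, SE 0.61). Lrp2, or megalin, the endocytic receptor of absorbing epithelia, read 7.92 and 7.66 against 4.40 and 4.31 (-3.44, SE 0.27). Both genes were under the floor on both inguinal arrays. Mmp7, a metalloproteinase of glandular epithelium, read 8.69 and 8.76 against 4.96 and 5.30 (-3.59, SE 0.47), but its next brightest probe differed by -0.08. Atp6v0d2 lost the call without inguinal replicate 2 (adjusted p = 0.0625). Mmp7 lost the call without inguinal replicate 1 (adjusted p = 0.0614).

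Plet1, a surface protein of epithelial progenitors, read 9.55 and 9.68 in epididymal and 6.53 and 6.30 in inguinal fat (-3.20, SE 0.30). Atp1b1, the beta subunit of the sodium pump, read 9.33 and 9.55 against 6.47 and 6.08 (-3.16, SE 0.33). Hspb7, a small heat shock protein known from heart muscle, read 9.13 and 9.21 against 6.27 and 5.95 (-3.06, SE 0.27). These 3 genes stayed above the floor on all 4 arrays, and in none did the depots overlap. Dao, the D-amino acid oxidase, read 6.79 and 6.96 against 4.20 and 4.25 (-2.65, SE 0.30), and Cabcoco1 read 6.80 and 7.33 against 4.32 and 4.25 (-2.78, SE 0.22). Mmp12, the macrophage elastase, read 9.61 and 8.02 against 5.52 and 5.51 (-3.30, SE 0.52). Mmp12 lost the call without inguinal replicate 1 or inguinal replicate 2 (adjusted p up to 0.102).

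The 250 bases before the start of 6 called genes are shown, 3 from genes higher and 3 from genes lower in inguinal fat, because they stand for the positional code, the beige program, the mesothelium and 3 collagen VI chains of opposite direction. Sequences are from RefSeq on GRCm38.p6, read 5′ to 3′ in the direction of the gene. Capitals mark 3 motifs on either strand. The TATA box was searched as TATAAA. The GC box was searched as GGGCGG. The half-site of nuclear receptors was searched as AGGTCA. None of these overlap in the windows shown.
Shox2 (chr3:66981772-66982021, minus strand): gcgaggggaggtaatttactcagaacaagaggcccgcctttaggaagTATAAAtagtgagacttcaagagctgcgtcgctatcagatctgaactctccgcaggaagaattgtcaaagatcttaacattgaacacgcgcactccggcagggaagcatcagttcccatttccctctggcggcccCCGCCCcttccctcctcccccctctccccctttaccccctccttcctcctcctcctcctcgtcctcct
Cox8b (chr7:140900447-140900696, minus strand): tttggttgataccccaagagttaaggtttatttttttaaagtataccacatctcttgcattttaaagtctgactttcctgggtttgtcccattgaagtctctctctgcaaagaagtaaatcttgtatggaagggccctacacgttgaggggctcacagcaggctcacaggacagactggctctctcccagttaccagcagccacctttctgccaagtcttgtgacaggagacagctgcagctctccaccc
Col6a3 (chr1:90843972-90844221, minus strand): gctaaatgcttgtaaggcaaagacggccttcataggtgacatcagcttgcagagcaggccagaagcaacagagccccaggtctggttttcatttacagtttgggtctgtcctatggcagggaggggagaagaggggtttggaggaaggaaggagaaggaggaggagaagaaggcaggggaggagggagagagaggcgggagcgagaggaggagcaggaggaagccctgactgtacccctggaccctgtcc
Upk3b (chr5:136038246-136038495, plus strand): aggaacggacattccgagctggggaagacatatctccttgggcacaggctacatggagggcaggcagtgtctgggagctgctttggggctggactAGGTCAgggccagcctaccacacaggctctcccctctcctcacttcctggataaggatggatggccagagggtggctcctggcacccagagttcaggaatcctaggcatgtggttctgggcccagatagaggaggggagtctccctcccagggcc
Col6a5 (chr9:105960644-105960893, minus strand): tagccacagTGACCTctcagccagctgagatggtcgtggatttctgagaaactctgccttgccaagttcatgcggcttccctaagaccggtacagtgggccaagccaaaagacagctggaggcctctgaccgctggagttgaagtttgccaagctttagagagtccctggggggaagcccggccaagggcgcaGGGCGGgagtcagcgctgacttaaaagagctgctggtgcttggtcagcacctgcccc
Col6a6 (chr9:105828086-105828335, minus strand): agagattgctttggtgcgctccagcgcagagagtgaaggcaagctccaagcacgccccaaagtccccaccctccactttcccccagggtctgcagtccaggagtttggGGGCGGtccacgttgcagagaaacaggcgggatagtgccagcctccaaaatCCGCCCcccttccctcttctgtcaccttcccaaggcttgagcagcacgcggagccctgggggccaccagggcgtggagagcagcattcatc
The TATA box letters were in the window of Shox2, the GC box letters in those of Shox2, Col6a5 and Col6a6, the half-site in those of Upk3b and Col6a5, and none of the 3 in those of Cox8b and Col6a3. Of the 9972 tested genes with a promoter in the table, 7.26% held the TATA box, 57.5% the GC box and 11% the half-site. Of the 85 promoters of higher genes these shares were 11.8%, 41.2% and 10.6%, and of the 104 promoters of lower genes 15.4%, 54.8% and 17.3%. A match is a description of these letters only.

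The positional code differed in a few genes, and those called were higher in inguinal fat. Of 37 tested transcription factors of limb and trunk position, 6 were higher and 0 lower, against 0.897% and 1.06% of all tested genes. With either epididymal wild-type array left out these counts were 9 and 1. Of the list 8 members were tested because of inguinal fat alone, so these had to read higher there. Because of epididymal fat alone 1 was tested. The counts called are thus partly set by the filter. The 6 were Tbx15, Hoxc10, Shox2, Hoxc9, Hoxa9 and Tbx5. Hoxc10, a factor of the hind limb and lower trunk, read 5.04 and 4.92 in epididymal and 7.55 and 6.89 in inguinal fat (2.24, SE 0.28, adjusted p = 0.00491). Its neighbour Hoxc9 read 5.88 and 5.51 against 7.42 and 7.16 (1.6, SE 0.20). Shox2, a homeobox factor of the proximal limb, read 4.30 and 4.61 against 6.2 and 6.16 (1.73, SE 0.18). Hoxa9, another posterior Hox factor, read 4.49 and 4.76 against 6.2 and 5.87 (1.41), and Tbx5, the T-box factor of forelimb and heart, read 4.67 and 4.64 against 5.85 and 5.95 (1.24, SE 0.19). Hoxa9 lost the call without any compared array but epididymal replicate 1 (adjusted p up to 0.127). In all of these the depots were apart, and all but Hoxc9 were under the floor on both epididymal arrays. The list was not shifted as a whole: its median difference was 0.16, against 0.07 over all tested genes, with 22 members above and 15 below 0. Genes of the Hoxc cluster with no call included Hoxc8 at -0.09, Hoxc6 at 0.33 and Hoxc4 at -0.44. Several Hoxb genes were highest on the duct-bearing array, as Hoxb6 at 6.82 and 8.49 against 7.32 and 6.99. With each Mgl2-DTR array left out in turn, epididymal replicates first, 6, 4, 4 and 4 members were higher and 6, 0, 0 and 0 lower, and without both arrays that stood apart 2 were higher. Tbx5 lost the call without any compared array but epididymal replicate 1 (adjusted p up to 0.112).

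Of 11 tested transcription factors of visceral mesoderm, 4 were lower in inguinal fat and 0 higher, against 1.06% and 0.897% of all tested genes. The list median was -0.48. Of the 11, 2 passed the filter through epididymal fat alone, so these had to read higher there, and 1 through liver alone. Tcf21, a helix-loop-helix factor of visceral mesenchyme, read 6.68 and 6.68 in epididymal and 4.89 and 4.81 in inguinal fat (-1.83, SE 0.22, adjusted p = 0.00393). Wt1, the Wilms tumour factor of mesothelium and visceral fat progenitors, read 7.67 and 7.26 against 5.83 and 6.11 (-1.50, SE 0.18). Bnc1, basonuclin, read 6.30 and 6.37 against 4.40 and 4.66 (-1.81, SE 0.30), and Gata5, a zinc finger factor of heart and gut mesoderm, read 6.14 and 6.12 against 5.24 and 5.19 (-0.92, SE 0.19). In all 4 the depots were apart. Both inguinal values of Tcf21, Bnc1 and Gata5 lay under the floor. With each Mgl2-DTR array left out in turn, epididymal replicates first, 3, 2, 2 and 2 members passed, and 0 passed without both arrays that stood apart. Bnc1 lost the call without any compared array but epididymal replicate 1 (adjusted p up to 0.142). Gata5 lost the call without any of the 4 compared arrays (adjusted p up to 0.206), and without an inguinal wild-type array or an Mgl2-DTR liver array.

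Mesothelial genes were called in 1 direction. Of 27 tested markers 14 were lower and 0 higher in inguinal fat, against 1.06% and 0.897% of all tested genes. The list median was -1.75. In 20 both inguinal arrays lay under both epididymal arrays, against 18.1% of all tested genes. Of the 27, 10 passed the filter on dim genes through epididymal fat alone, so these had to read higher there. Upk1b and Upk3b, uroplakins that line urothelium and mesothelium, led the list. Upk1b read 9.28 and 9.90 in epididymal and 4.97 and 4.87 in inguinal fat (-4.67, SE 0.32, adjusted p = 0.000274). Upk3b read 10.08 and 10.37 against 6.00 and 6.23 (-4.11, SE 0.30). Pkhd1l1, a large fibrocystin-like membrane protein, read 8.94 and 8.77 against 4.65 and 4.42 (-4.33, SE 0.28). Both epididymal arrays were high for these 3 genes. Gpm6a, a membrane glycoprotein, read 9.13 and 9.12 against 6.15 and 5.83 (-3.14, SE 0.40), and Rspo1, a Wnt-enhancing ligand, read 9.46 and 9.45 against 6.43 and 6.99 (-2.75, SE 0.36). Gpm6a lost the call without inguinal replicate 2 (adjusted p = 0.0539). Rspo1 lost the call without inguinal replicate 1 (adjusted p = 0.061).

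The other called markers of mesothelium included Msln, mesothelin, at 7.39 and 7.56 against 5.01 and 4.82 (-2.56), Lrrn4 at 8.02 and 7.51 against 5.17 and 4.90 (-2.73), and Muc16, a surface mucin, at 6.58 and 6.30 against 3.79 and 3.86 (-2.61). Several listed genes, among them keratins that other epithelia also make, did not pass: Krt19 (-1.38, adjusted p = 0.162), Krt18 (-1.75, adjusted p = 0.186) and Krt7 (-0.55, adjusted p = 0.452). Igfbp6 (-0.02) and Cldn15 (0.30) did not pass either. Krt18 read 6.32 and 8.68 in epididymal fat, higher on the duct-bearing array. With each Mgl2-DTR array left out in turn, epididymal replicates first, 16, 13, 11 and 10 members were lower, 1 was higher without inguinal replicate 1, and 5 were lower without both arrays that stood apart. Between the 2 remaining arrays the list median was -1.15. In wild-type mice 12 members were lower, with a median of -1.17.

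**Figure D3:**
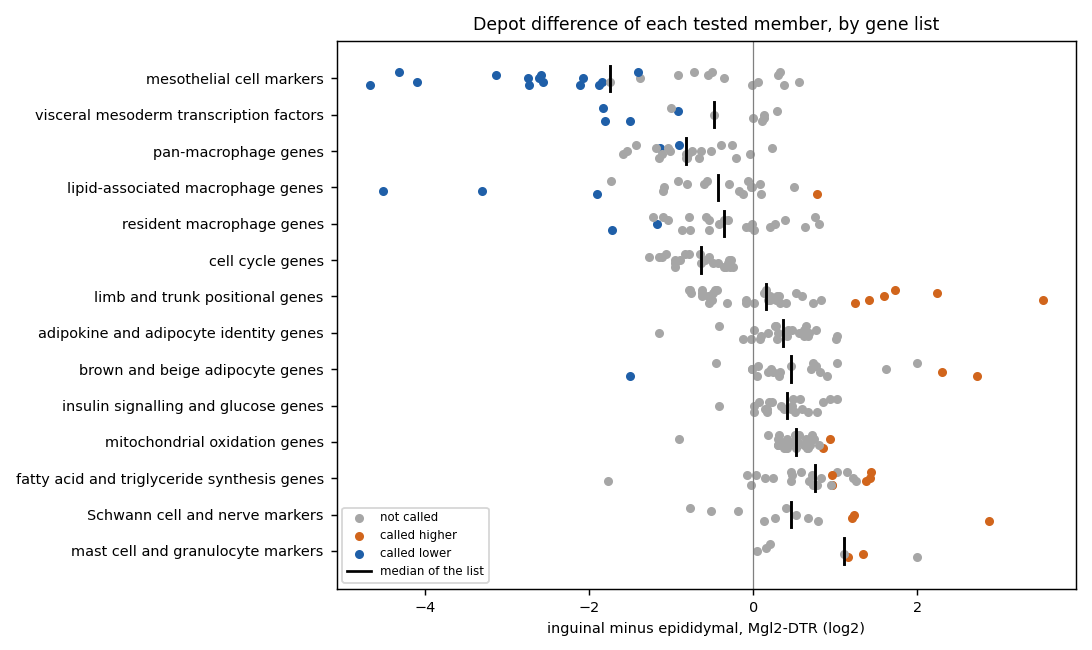
Inguinal minus epididymal difference in Mgl2-DTR mice on the log2 scale (x axis) for each tested member of 14 gene lists, orange where called higher, blue where called lower, grey where not called, with a black bar at the list median. The mesothelial list has 14 blue points and a median of -1.75, and the positional list spreads to both sides of 0 with 6 orange points.

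Of 23 tested genes of brown and beige adipocytes 2 were higher and 1 was lower, against 0.897% and 1.06% of all tested genes. The list median was 0.46. The filter admitted 5 of the 23 through inguinal fat alone, so these had to read higher there, and 3 through liver alone. Cidea, a lipid droplet protein of thermogenic adipocytes, read 4.71 and 4.71 in epididymal and 7.21 and 6.82 in inguinal fat (2.31, SE 0.19, adjusted p = 0.000543). Cox8b, a cytochrome oxidase subunit of brown fat and muscle, read 5.09 and 5.07 against 8.08 and 7.54 (2.73, SE 0.20, adjusted p = 0.000286). For both genes the epididymal arrays lay under the floor and the inguinal arrays above it, and both calls stood without the muscle-bearing array. Ucp1, the uncoupling protein of active brown and beige adipocytes, was under the floor on all 4 arrays, at 4.11 and 4.21 in epididymal and 5.51 and 4.45 in inguinal fat, and was not tested. Prdm16, a switch factor of beige adipocytes, read 5.56 and 5.99 against 7.10 and 6.5 (1.03, adjusted p = 0.089), and Ppargc1a, a driver of mitochondrial genes, read 6.94 and 6.74 against 7.78 and 7.38 (0.74, adjusted p = 0.237). Both were highest on the muscle-bearing array, and the part of muscle in this was not tested. The lower gene was Slc27a2, a fatty acid transporter of liver and kidney, at 5.50 and 6.11 against 4.31 and 4.29 (-1.50, SE 0.28), whose next probe gave 0.07. Slc27a2 lost the call without any compared array but epididymal replicate 1 (adjusted p up to 0.19), and without an inguinal wild-type or any liver array.

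Of 26 tested fatty acid and triglyceride synthesis genes 5 were higher in inguinal fat and 0 lower, against 0.897% and 1.06% of all tested genes. The list median was 0.75, with 23 members above 0, and 0.45 between the 2 arrays that did not stand apart. Acaca, the acetyl-CoA carboxylase of fatty acid synthesis, read 10.49 and 9.91 in epididymal and 11.65 and 11.51 in inguinal fat (1.38, SE 0.26, adjusted p = 0.0331), or 2.6-fold. Acacb, its mitochondrial counterpart, read 7.40 and 7.16 against 8.82 and 8.60 (1.43, SE 0.29). Acss2, which makes acetyl-CoA from acetate, read 8.33 and 7.56 against 9.61 and 9.16 (1.44, SE 0.28). In these genes, and in the next pair, the higher epididymal value was that of replicate 1. Slc25a1, the mitochondrial citrate carrier, read 10.76 and 10.62 against 11.73 and 11.56 (0.96, SE 0.16), and Pcx, pyruvate carboxylase, read 10.49 and 10.23 against 11.36 and 11.29 (0.96, SE 0.19). Fasn, the fatty acid synthase itself, read 12.16 and 11.32 against 13.06 and 12.86 (1.22, adjusted p = 0.108), and Scd1, a desaturase, differed by 0.15. Of this list 6 members were higher and 1 was lower without epididymal replicate 1, and 0 passed without epididymal replicate 2 or either inguinal Mgl2-DTR array. Acaca, Acss2 and Pcx lost the call without any compared array but epididymal replicate 1 (adjusted p up to 0.236), and without an inguinal wild-type or any liver array. Acacb lost the call without any of the 4 compared arrays (adjusted p up to 0.257), and without an inguinal wild-type or any liver array. Slc25a1 lost the call without any compared array but epididymal replicate 1 (adjusted p up to 0.139).

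Mitochondrial oxidation genes lay above 0 in 32 of 33 tested cases, in 31 with both inguinal arrays above both epididymal arrays, against 34.7% of all tested genes, and with a median of 0.52. Between the 2 arrays that did not stand apart the list median was 0.34. Only 2 of the 33 passed, both higher, against 0.897% of all tested genes. Acadvl, a dehydrogenase of long-chain fatty acids, read 8.50 and 8.48 against 9.46 and 9.40 (0.94, SE 0.14, adjusted p = 0.013). Etfb, an electron carrier of fatty acid oxidation, read 9.16 and 8.88 against 9.92 and 9.83 (0.85, SE 0.17). Of 22 lipolysis and lipid droplet genes 2 were higher and 0 lower, against 0.897% and 1.06% of all tested genes. The list median was 0.44, or 0.31 between the 2 arrays that did not stand apart. Ces1f, a carboxylesterase, read 8.80 and 8.51 against 10.48 and 10.26 (1.71, SE 0.30), and Hcar2, the niacin receptor that restrains lipolysis, read 6.74 and 6.58 against 7.74 and 8.32 (1.37, SE 0.25). The depots were apart for all 4 genes. In both lists 0 members passed without epididymal replicate 2 or either inguinal Mgl2-DTR array. With either epididymal wild-type array left out 7 mitochondrial genes were higher and 1 was lower. Acadvl lost the call without any compared array but epididymal replicate 1 (adjusted p up to 0.102). Etfb lost the call without any compared array but epididymal replicate 1 (adjusted p up to 0.236), and without an inguinal wild-type or any liver array. Ces1f lost the call without any compared array but epididymal replicate 1 (adjusted p up to 0.162), and without a wild-type liver array. Hcar2 lost the call without any compared array but epididymal replicate 1 (adjusted p up to 0.184), and without an Mgl2-DTR liver array.

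Adipocyte identity genes and insulin signalling genes gave 0 calls by limma. Of 24 tested adipokine and identity genes 20 lay above 0, with a median of 0.36, against 0.07 over all tested genes. Between the 2 arrays that did not stand apart the list median was 0.16. The smallest limma adjusted p was 0.089, that of Slc2a4, the insulin-regulated glucose transporter. Slc2a4 read 9.47 and 9.15 in epididymal and 10.57 and 10.08 in inguinal fat (1.02). Adipoq, adiponectin, differed by 0.29, Lep, leptin, by -0.13, and Retn, resistin, by 0.08. Nrg4, a secreted growth factor of brown fat, differed by 1.01 (adjusted p = 0.172), and Mest, a marker of expanding adipocytes, by -1.15 (adjusted p = 0.161). Of 22 insulin and glucose genes 21 lay above 0, with a median of 0.42, or 0.29 between the 2 arrays that did not stand apart. Among them Gys1, the glycogen synthase of muscle and fat, differed by 0.78 (adjusted p = 0.0883), and Grb14, an inhibitor of the insulin receptor, by 0.93 (adjusted p = 0.0943). Without epididymal replicate 1, 1 gene of the insulin list passed. With either epididymal wild-type array left out, 4 of it were higher, and 1 of the identity genes was.

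Of 37 tested genes of fibro-adipogenic progenitors 3 were higher and 2 lower, against 0.897% and 1.06% of all tested genes. The list median was -0.02. Besides Cxcl14 the higher genes were Pi16, a marker of a progenitor layer in connective tissue, at 7.87 and 7.55 in epididymal and 9.56 and 10.17 in inguinal fat (2.16, SE 0.25, adjusted p = 0.00358), and Fgf7, a growth factor for epithelium, at 5.94 and 5.88 against 6.97 and 7.31 (1.23, SE 0.16). Lower were Agt, angiotensinogen, at 9.60 and 9.69 against 7.42 and 7.89 (-1.99, SE 0.31), and Tnfrsf11b, osteoprotegerin, at 8.97 and 7.57 against 5.88 and 5.53 (-2.57, SE 0.44). Epididymal replicate 1 was the higher for Tnfrsf11b, and the depots were apart for all 4. The general progenitor genes Pdgfra (0.55), Dpp4 (-0.46) and Cd34 (-0.08) did not pass. Fgf7 lost the call without inguinal replicate 2 (adjusted p = 0.0563). Agt lost the call without epididymal replicate 2 or inguinal replicate 1 (adjusted p up to 0.11). Tnfrsf11b lost the call without inguinal replicate 1 or inguinal replicate 2 (adjusted p up to 0.14).

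Collagen VI chains were called in opposite directions. Col6a3, a chain of the common collagen VI trimer, was higher in inguinal fat, at 8.74 and 8.21 against 10.01 and 9.89 (1.48, SE 0.24, adjusted p = 0.0169). Col6a5 and its genomic neighbour Col6a6, related chains that can take the place of Col6a3, were lower, Col6a6 at 7.74 and 7.38 against 6.40 and 6.25 (-1.23, SE 0.25, adjusted p = 0.0409). For none of the 3 did the depots overlap. Col4a5, a basement membrane chain, read 6.69 and 6.81 against 6.05 and 6.09 (-0.69, SE 0.14). Of the 24 tested collagens 1 was thus higher and 3 lower, with a list median of 0.19. Of 42 other matrix and matrix enzyme genes 2 were higher and 3 lower, with a median of 0.00. Over all tested genes 0.897% were higher and 1.06% lower. Besides Mmp3, Mmp2, gelatinase A, was higher at 9.49 and 9.08 against 10.59 and 10.75 (1.39, SE 0.22). Besides Mmp12, Cilp, a cartilage matrix protein, was lower at 7.59 and 7.54 against 5.85 and 4.99 (-2.15, SE 0.38), as was Fmod, fibromodulin, at 8.34 and 9.22 against 7.17 and 6.49 (-1.95, SE 0.37). Col6a3 and Mmp2 lost the call without any compared array but epididymal replicate 1 (adjusted p up to 0.126). Col6a6 lost the call without any of the 4 compared arrays (adjusted p up to 0.185), and without an inguinal wild-type array or an Mgl2-DTR liver array. Col4a5 lost the call without any of the 4 compared arrays (adjusted p up to 0.251), and without an inguinal wild-type or any liver array. Cilp lost the call without epididymal replicate 2 or inguinal replicate 2 (adjusted p up to 0.155), and without any liver array. Fmod lost the call without any compared array but epididymal replicate 1 (adjusted p up to 0.19), and without an inguinal wild-type or any liver array.

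Of 34 tested genes of BMP, Wnt and retinoid signalling 0 were higher and 4 lower, against 0.897% and 1.06% of all tested genes. The list median was -0.24. Besides Rspo1, Wnt2b, a Wnt ligand, read 8.01 and 8.19 in epididymal and 5.16 and 5.73 in inguinal fat (-2.65, SE 0.34, adjusted p = 0.00553). Aldh1a2, the enzyme that makes retinoic acid and also a member of the mesothelial list, read 7.49 and 7.40 against 5.34 and 5.33 (-2.11, SE 0.24). Both inguinal values of Aldh1a2 and 1 of Wnt2b lay under the floor. Tgfb2, a ligand of the TGF-beta family, read 6.94 and 6.67 against 5.70 and 5.75 (-1.08, SE 0.20). Without both arrays that stood apart 0 members passed, and with either epididymal wild-type array left out 10 were lower. Wnt2b lost the call without inguinal replicate 1 (adjusted p = 0.0592). Tgfb2 lost the call without any of the 4 compared arrays (adjusted p up to 0.194), and without an inguinal wild-type or any liver array.

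Macrophage genes were read in mice whose Mgl2 level was under the floor in both depots. Of 23 tested pan-macrophage genes 22 lay below 0, with a median of -0.82. In the list 2 passed, both lower in inguinal fat, against 1.06% of all tested genes. C1qb and C1qc are chains of complement C1q, which tissue macrophages make. C1qb read 10.55 and 10.27 in epididymal and 9.01 and 9.54 in inguinal fat (-1.14, SE 0.21, adjusted p = 0.031). C1qc read 8.08 and 7.90 against 7.08 and 7.10 (-0.90, SE 0.17). The depots were apart for both, as for 16 members lower in inguinal fat in all, against 18.1% of all tested genes. Cd68, a lysosomal protein of macrophages, read 11.43 and 11.39 against 9.44 and 10.31 (-1.54, adjusted p = 0.091), and Csf1r, their growth factor receptor, read 9.54 and 9.29 against 7.86 and 8.60 (-1.18, adjusted p = 0.141). Inguinal replicate 1, the muscle-bearing array, was the lower, with a list mean of 7.78 against 8.58 on inguinal replicate 2 and 9.13 and 8.84 in epididymal fat. With the muscle marker mean as a covariate C1qb and C1qc lost the call, as did most called genes, since 43 of the 249 kept it. The part of muscle RNA beyond this was not tested. Between the 2 arrays that did not stand apart the list median was -0.47. In this list 7 passed with either epididymal wild-type array left out. C1qb lost the call without any compared array but inguinal replicate 2 (adjusted p up to 0.199), and without an inguinal wild-type or any liver array. C1qc lost the call without any of the 4 compared arrays (adjusted p up to 0.194), and without an inguinal wild-type or any liver array.

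Lipid-associated macrophage genes, which mark macrophages that take up lipid around dying adipocytes, gave 3 lower and 1 higher of 20 tested. Over all tested genes the shares were 1.06% and 0.897%. The list median was -0.43. Atp6v0d2 and Mmp12, given above, had the largest differences. Gpnmb, a lysosomal glycoprotein of such cells, read 11.11 and 11.08 in epididymal and 9.14 and 9.25 in inguinal fat (-1.90, SE 0.40, adjusted p = 0.0474). The higher gene was Acp5, a phosphatase of osteoclasts and macrophages, at 10.18 and 9.91 against 10.81 and 10.85 (0.78, SE 0.16, adjusted p = 0.0409). The depots were apart for both. In wild-type mice Atp6v0d2 (-3.29, adjusted p = 0.0335), Mmp12 (-2.58, adjusted p = 0.0468) and Gpnmb (-2.04, adjusted p = 0.0417) were lower too. Of the list 6 were lower with either epididymal wild-type array left out. Gpnmb lost the call without any of the 4 compared arrays (adjusted p up to 0.24), and without an inguinal wild-type or any liver array. Acp5 lost the call without any compared array but epididymal replicate 1 (adjusted p up to 0.235), and without an inguinal wild-type or any liver array.

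Resident macrophage genes gave 2 lower of 25 tested, against 1.06% of all tested genes. The list median was -0.35 in Mgl2-DTR and 0.28 in wild-type mice. Folr2, the folate receptor of resident macrophages, read 9.65 and 9.42 in epididymal and 8.13 and 8.59 in inguinal fat of Mgl2-DTR mice (-1.17, SE 0.24, adjusted p = 0.0467), and 11.12 and 10.35 against 10.74 and 10.86 in the wild-type depots (0.07). Lyz1, a lysozyme, read 7.38 and 6.54 against 5.03 and 5.45 (-1.72, SE 0.35, adjusted p = 0.0412), and differed by -0.52 in wild-type mice. The depots were apart for both genes in Mgl2-DTR mice. The difference between genotypes did not pass for either, at -1.24 for Folr2 (unadjusted p = 0.00548, adjusted p = 0.995) and -1.21 for Lyz1 (unadjusted p = 0.0349, adjusted p = 0.995). Retnla, a secreted protein of alternatively activated macrophages, read 7.90 and 6.53 against 5.88 and 6.09 (-1.23, adjusted p = 0.166). Ccl8, a chemokine of such macrophages, read 4.70 and 5.07 against 5.18 and 6.10 in Mgl2-DTR mice (0.76, adjusted p = 0.241). In wild-type mice Ccl8 was higher in inguinal fat by 2.57 (adjusted p = 0.00316), and the genotypes differed by -1.82 (unadjusted p = 0.00184, adjusted p = 0.995), which did not pass. Folr2 lost the call without any of the 4 compared arrays (adjusted p up to 0.287), and without an inguinal wild-type or any liver array. Lyz1 lost the call without any compared array but epididymal replicate 2 (adjusted p up to 0.256), and without an inguinal wild-type array or a wild-type liver array.

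**Figure D4:**
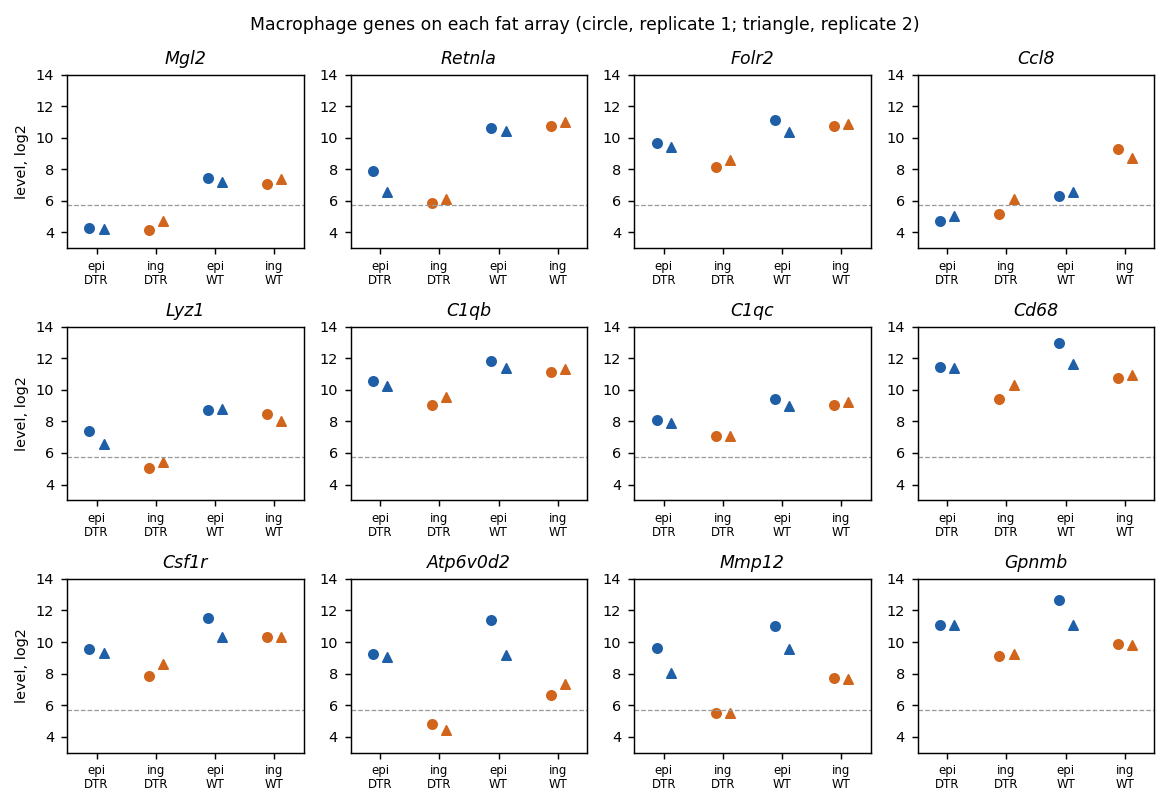
Log2 level (y axis) of Mgl2 and 11 macrophage genes on each of the 8 fat arrays, by depot (epi, epididymal; ing, inguinal) and genotype (DTR, Mgl2-DTR; WT, wild-type), with a dashed line at the floor of 5.71. Mgl2 is under the floor on all 4 Mgl2-DTR arrays, Atp6v0d2 and Mmp12 are lower in inguinal fat of both genotypes, and Folr2 and C1qc are apart between the Mgl2-DTR depots and overlap between the wild-type depots.

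Other immune cells differed in single genes, where 1.06% of all tested genes were called lower. Of 7 MHC class II genes 1 was lower, H2-DMb2, a chaperone of peptide loading, at 5.57 and 6.46 in epididymal and 4.49 and 4.51 in inguinal fat (-1.52, SE 0.32, adjusted p = 0.0474). Of 17 dendritic cell genes 1 was lower, Cd24a, which epithelial cells also carry, at 9.48 and 9.87 against 8.35 and 8.30 (-1.35, SE 0.25). Both were highest on the duct-bearing array, whose part in this was not tested. Of 12 T and NK cell genes 1 was lower, Il7r, the interleukin-7 receptor, at 8.65 and 8.08 against 5.82 and 6.36 (-2.27, SE 0.48, adjusted p = 0.0481), while the list had a median of 0.09. Of 7 tested B cell genes, 3 of them tested because of epididymal fat alone, 0 passed (2 with either epididymal wild-type array left out), 7 lay below 0, and the median was -0.44. The 3 B cell genes tested because of epididymal fat alone had to read higher there. Of 4 lymph node stroma genes 1 was lower, Chst4, a sulfotransferase, at 6.46 and 6.37 against 4.52 and 4.34 (-1.99, SE 0.27). Cxcl13, the chemokine that draws B cells into follicles, read 9.27 and 8.0 against 9.56 and 10.85 (1.57, adjusted p = 0.15). H2-DMb2 lost the call without any compared array but epididymal replicate 1 (adjusted p up to 0.236), and without an inguinal wild-type or any liver array. Cd24a lost the call without any compared array but epididymal replicate 1 (adjusted p up to 0.187), and without any liver array. Il7r lost the call without any of the 4 compared arrays (adjusted p up to 0.281), and without an inguinal wild-type or any liver array. Chst4 lost the call without inguinal replicate 2 (adjusted p = 0.0659).

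Mast cell genes went the other way. Of 7 tested 2 were higher in inguinal fat, against 0.897% of all tested genes. All 7 lay above 0, and the median was 1.10 in Mgl2-DTR and 1.37 in wild-type mice. Cpa3, a protease stored in mast cell granules, read 8.02 and 7.75 in epididymal and 8.88 and 9.57 in inguinal fat (1.34, SE 0.24, adjusted p = 0.0301). Cma1, a chymase of the same granules, read 5.56 and 5.74 against 6.54 and 7.07 (1.15, SE 0.23, adjusted p = 0.0389). Inguinal replicate 2 was the higher for both, and the depots were apart. Mcpt4 (1.99, adjusted p = 0.0624) and Tpsb2 (1.10, adjusted p = 0.0566), further granule proteases, did not pass. Of the list 4 were higher with either epididymal wild-type array left out. Cpa3 lost the call without epididymal replicate 2 or inguinal replicate 2 (adjusted p up to 0.186), and without an inguinal wild-type or any liver array. Cma1 lost the call without any of the 4 compared arrays (adjusted p up to 0.192), and without an inguinal wild-type or any liver array.

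Of 26 chemokines and cytokines 1 was higher (Cxcl14) and 1 lower, Cxcl16, a ligand that also binds oxidized lipid, at 8.49 and 8.41 against 7.59 and 7.53 (-0.89, SE 0.14). Of 26 complement and coagulation genes Procr, the receptor of protein C, was higher at 7.22 and 6.98 against 8.06 and 8.25 (1.05, SE 0.17), and C6, a terminal complement protein, was lower at 8.20 and 7.98 against 5.87 and 5.87 (-2.22, SE 0.28). With either epididymal wild-type array left out 3 chemokines and cytokines were lower. Over all tested genes 0.897% were higher and 1.06% lower. Cxcl16, Procr and C6 had the depots apart. Cxcl16 and Procr lost the call without any compared array but epididymal replicate 1 (adjusted p up to 0.132). C6 kept the call without any single array.

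Nerve genes gave 3 higher of 12 tested, against 0.897% of all tested genes, with a median of 0.46. Of the 12, 2 were tested because of inguinal fat alone, so these had to read higher there, and 3 lay below 0. Cdh19, a cadherin of Schwann cells, read 3.32 and 3.54 in epididymal and 6.65 and 5.96 in inguinal fat (2.87, SE 0.24, adjusted p = 0.000632). Cldn19, a tight junction protein of myelinating Schwann cells, read 5.65 and 5.73 against 7.05 and 6.75 (1.21, SE 0.14), with 0.31 from its next probe. Ngfr, the low-affinity neurotrophin receptor, read 5.09 and 5.13 against 6.66 and 6.02 (1.23, SE 0.25). Inguinal replicate 1 was the higher for all 3, and its muscle genes were high too. With the muscle marker mean as a covariate Cdh19 kept the call, and Cldn19 and Ngfr lost it. Of all 249 called genes 43 kept the call with this covariate. The part of muscle beyond this was not tested. Cdh19 and Cldn19 kept the call without any single array. Ngfr lost the call without any compared array but inguinal replicate 2 (adjusted p up to 0.257), and without an inguinal wild-type or any liver array.

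Vascular lists gave few calls, where 0.897% of all tested genes were called higher and 1.06% lower. Of 27 endothelial genes 1 was higher, Nos3, the endothelial nitric oxide synthase, at 7.93 and 7.42 against 8.92 and 8.53 (1.05, SE 0.19, adjusted p = 0.0301). The list median was 0.48 over the 4 arrays and 0.03 between the 2 arrays that did not stand apart. Of 8 lymphatic endothelial genes 1 was lower, Mmrn1, multimerin, at 7.83 and 8.14 against 6.46 and 5.89 (-1.81, SE 0.34). Of 14 smooth muscle and pericyte genes 1 was higher, Notch3, a receptor of pericytes, at 7.59 and 7.29 against 8.17 and 8.02 (0.66, SE 0.14, adjusted p = 0.0474), which lost its call under both renormalizations. Nos3, Mmrn1 and Notch3 lost the call without any compared array but epididymal replicate 1 (adjusted p up to 0.281), and without an inguinal wild-type or any liver array.

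The array also holds genes of tissues next to the depots. Of 52 skeletal muscle genes on the array 32 were tested, 14 of them because of inguinal fat alone, so the direction of the list was partly set by the filter and is not read. By limma 0 passed, the smallest adjusted p being 0.122, that of Myh4 (5.69, SE 1.6). Atp2a1, the calcium pump of fast muscle, read 4.59 and 4.97 in epididymal and 11.69 and 7.06 in inguinal fat (4.59), and Tcap, a cap of the giant muscle protein titin, read 6.15 and 5.63 against 7.68 and 6.52 (1.21). Of 68 epididymal duct genes on the array 29 were tested, and without epididymal replicate 2 only 10 of these would have passed the filter, so their direction and median are not read. By limma 1 passed as lower in inguinal fat, Sult1e1, the estrogen sulfotransferase, at 9.08 and 8.60 against 6.81 and 6.43 (-2.21, SE 0.43, adjusted p = 0.0377). Sult1e1 was high on both epididymal arrays. Of the tested genes 0 passed in limma without epididymal replicate 2, and 26 without epididymal replicate 1. Sult1e1 lost the call without any of the 4 compared arrays (adjusted p up to 0.184), and without any liver array.

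Of 10 epithelial genes 0 passed, though Prom1 at 6.37 and 9.30 against 4.82 and 4.22 (-3.31, adjusted p = 0.0661), the adhesion molecule Epcam at 5.62 and 8.53 against 4.61 and 4.18 (-2.69, adjusted p = 0.103) and the desmosome protein Dsp at 6.86 and 8.88 against 4.89 and 4.59 (-3.13, adjusted p = 0.162) were highest on epididymal replicate 2. Without epididymal replicate 1, 5 were lower, and with either epididymal wild-type array left out 1 was. Of 5 testis and sperm genes 0 passed, with Star at -0.60, Gapdhs at -0.47 and Odf1 at -0.20. Of 19 hepatocyte genes 13 were tested because of liver alone and 13 were under the floor on all 4 fat arrays. Of the list 0 passed in limma, and 2 did with either epididymal wild-type array left out. Alb, albumin, read 7.13 and 6.28 in epididymal and 9.61 and 9.61 in inguinal fat (2.91, adjusted p = 0.0908), Ambp differed by 0.65 and Hpd by 0.76.

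The 23 tested cell cycle genes lay below 0 with 0 calls. Of them 22 had both inguinal arrays under both epididymal arrays, against 18.1% of all tested genes, with a median of -0.63 in Mgl2-DTR and -1.23 in wild-type mice and a smallest adjusted p of 0.287. Prc1, a protein of the dividing spindle, read 6.95 and 6.79 against 5.61 and 5.83 (-1.15), Kif11, a spindle motor, 6.95 and 6.38 against 5.51 and 5.29 (-1.27), and Plk1, a mitotic kinase, 7.05 and 6.70 against 5.75 and 6.09 (-0.95). With either epididymal wild-type array left out 7 of the list were lower, among them Prc1 (limma adjusted p = 0.0228), Kif11 (adjusted p = 0.0151) and Plk1 (adjusted p = 0.0231). Of the list 5 members passed the filter through epididymal fat alone, so these had to read higher there. The list mean was 8.16 and 6.5 in wild-type epididymal fat, a wider spread than the 7.04 and 6.78 of Mgl2-DTR mice. Of 20 interferon-stimulated genes 19 lay above 0, with a median of 0.55 and 0 calls, among them Rtp4 (1.08, adjusted p = 0.0656), Stat2 (0.64, adjusted p = 0.0926) and Zbp1 (1.05, adjusted p = 0.122). Without epididymal replicate 1, 5 were higher, as were 2 with either epididymal wild-type array left out. Clock genes gave 0 calls of 16, with Nfil3 at 0.58, Bhlhe41 at -1.22 and Bhlhe40 at -0.45. Steroid-handling genes gave 0 calls of 17, with Akr1c18 at 1.31 (adjusted p = 0.0637), Hsd17b12 at 0.43 and Sult1a1 at 0.78. Of the steroid list 2 were higher with either epididymal wild-type array left out. Of 26 immediate early and stress genes 1 was lower, Gadd45b, which is described with the genotypes, and 2 with either epididymal wild-type array left out. List medians kept their sign under both renormalizations for every list tested except the clock genes, whose median was 0.02 as deposited and -0.06 with cyclic loess.

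The same depot contrast in wild-type mice shares no array with that of Mgl2-DTR mice in its differences. Both contrasts use the same estimate of spread for each gene and the same filter over both genotypes. Their calls are therefore not independent. It called 190 genes (1.49%), 106 higher (0.834%) and 84 lower (0.661%), and in 46.7% of all tested genes its depots did not overlap. Among the calls, 115 genes were called in both genotypes, each in the same direction. That is 46.2% of the Mgl2-DTR calls and 60.5% of the wild-type calls. Of the 249 Mgl2-DTR calls 244 (98.0%) had the same sign in wild-type mice, against 69.8% of all tested genes. Across all tested genes Pearson's r between the 2 depot differences was 0.70 and Spearman's rho 0.63, as a description, since genes are not independent and both contrasts share a platform and the same kinds of tissue. Tbx15 differed by 3.53 in Mgl2-DTR and 3.45 in wild-type mice, Col6a5 by -4.69 and -5.20, Upk1b by -4.67 and -4.68, and Mmp3 by 3.91 and 4.01.

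The difference between the genotypes was tested itself, and limma called 0 of 12710 genes (0%), with 364 (2.86%) at an unadjusted p under 0.05. The 134 genes called in Mgl2-DTR mice alone are thus not shown to differ between genotypes. The count was 123 without epididymal Mgl2-DTR replicate 1, which leaves the duct-bearing array alone, 104 without epididymal wild-type replicate 2, 2 without inguinal wild-type replicate 1, 1 without epididymal wild-type replicate 1, and 0 without each of the other 8 arrays. The 5 genes with the smallest p are given as values. Gadd45b, a stress-induced regulator of growth arrest, read 8.59 and 8.36 in epididymal and 7.57 and 7.74 in inguinal fat of Mgl2-DTR mice (-0.83, adjusted p = 0.0298) and 9.19 and 9.06 against 6.74 and 6.91 in wild-type mice (-2.30), a difference between genotypes of 1.47 (unadjusted p = 5.37e-05, adjusted p = 0.341). The depots were apart in the same direction in both genotypes. Cidea was higher in inguinal fat by 2.31 in Mgl2-DTR and by 3.76 in wild-type mice, with inguinal wild-type levels of 8.72 and 8.43, a difference of -1.45 (unadjusted p = 0.000348, adjusted p = 0.995). Cox8b, at 2.73 and 3.56, differed by -0.83 (unadjusted p = 0.0157, adjusted p = 0.995). Gadd45b lost the call without any of the 4 compared arrays (adjusted p up to 0.199), and without an Mgl2-DTR liver array.

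Myb, a transcription factor of blood progenitors, read 6.31 and 6.21 in epididymal and 5.24 and 5.36 in inguinal fat of Mgl2-DTR mice (-0.96, adjusted p = 0.0112), and 5.25 and 5.57 against 5.91 and 6.01 in wild-type mice (0.55), a difference of -1.51 (unadjusted p = 3.07e-05, adjusted p = 0.341). Its next probe gave 0.25 in Mgl2-DTR mice. Itgb8, an integrin subunit that activates TGF-beta, read 5.66 and 6.18 against 7.55 and 7.20 in Mgl2-DTR (1.45, adjusted p = 0.00776) and 5.81 and 5.80 against 5.70 and 5.49 in wild-type mice (-0.21), a difference of 1.66 (unadjusted p = 0.000213, adjusted p = 0.905). Both genes were apart in opposite directions in the genotypes, which their choice by the p of this difference favours. Of all tested genes 396 (3.12%) were apart in opposite directions, while 3114 (24.5%) were apart in the same direction. Cyp4f14, a cytochrome P450, differed by 0.94 between genotypes (unadjusted p = 0.000878, adjusted p = 0.995) at levels under the floor on all 8 fat arrays. Myb lost the call without any compared array but epididymal replicate 1 (adjusted p up to 0.1). Itgb8 lost the call without inguinal replicate 1 (adjusted p = 0.0773). Cyp4f14 lost the call without any of the 4 compared arrays (adjusted p up to 0.213), and without an inguinal wild-type array or an Mgl2-DTR liver array.

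**Figure D5:**
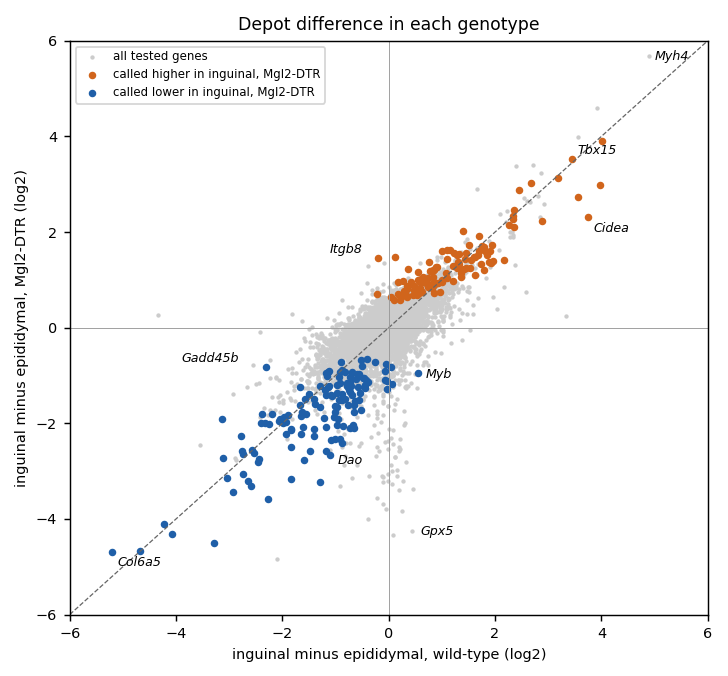
Inguinal minus epididymal difference on the log2 scale in wild-type (x axis) and Mgl2-DTR mice (y axis) for the 12710 tested genes, coloured where called higher or lower in Mgl2-DTR mice, with a dashed line of equal differences. Of the 249 coloured genes 244 have the same sign on both axes.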

How the data were processed

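RNA from epididymal fat, inguinal fat and liver was measured on 12 Affymetrix mouse gene arrays, 2 per tissue and genotype. The values are the authors' deposited log2 levels, with array medians of 5.19 to 5.28. Per the submitters' processing notes limma was used, and how background was corrected and arrays were normalized is not given in the sources used here. Of 41345 probes, 23521 carried a single gene symbol in the platform annotation, 1814 several and 16010 none, and 22180 genes were represented by their brightest probe. The test took in the 12710 genes that in at least 1 tissue averaged, over its 4 arrays, more than 5.71, which is the median level of single-symbol probes. Group means of all 12 arrays were fitted with limma 3.58.1 in R 4.3.3 (lmFit, eBayes), which left 6 residual degrees of freedom and 3.35 from the prior, with Benjamini-Hochberg adjustment over all tested genes. The script was tested on simulated data. The number of arrays, 2 per group, limits the precision. Promoters are RefSeq's, on the build named beside them.

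The text names the 14 called genes per direction with the widest gap between the depots, up to 5 called genes per list and direction or otherwise the 3 smallest p-values, and the 5 smallest p-values between genotypes. Other genes (for example Ccl8, Retnla, Ucp1, Fabp4, Gpx5, Hoxa9, Hoxc8, Hoxb6, Msln, Lrrn4, Muc16, Krt18, Krt19, Krt7, Igfbp6, Cldn15, Prdm16, Ppargc1a, Fasn, Scd1, Adipoq, Lep, Retn, Pdgfra, Dpp4, Cd34, Cd68, Csf1r, Cxcl13, Mcpt4 and Tpsb2, and the genes of the other observations) were chosen after their values were seen. Members and lists were chosen with earlier results of these data known. Alternatives covered the filter, probe, scaling, variance model, replicate block, arrays left out and tissue markers as covariates; a filter on the fat arrays alone was added after seeing the data.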

Additional observations from a re-analysis of the deposited data

Results flagged for a closer look

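In 3 of the 5 genes with the smallest p between genotypes the depots lay apart in opposite directions in the 2 genotypes, and the difference itself was tested with limma and missed the threshold. The depot difference in Mgl2-DTR minus that in wild-type mice was -1.51 for Myb (unadjusted p = 3.07e-05, adjusted p = 0.341), 1.66 for Itgb8 (unadjusted p = 0.000213, adjusted p = 0.905) and 0.94 for Cyp4f14 (unadjusted p = 0.000878, adjusted p = 0.995). Cyp4f14 was under the floor on all 8 fat arrays. Such a pattern was present in 3.12% of all tested genes. The 5 genes were chosen by the p of that difference, which favours opposite directions, so the 2 shares cannot be compared.

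The mean of the 12 T and NK cell genes was 6.44 and 6.47 in epididymal and 6.37 and 6.37 in inguinal Mgl2-DTR fat, and 6.52 and 6.39 against 6.76 and 6.58 in wild-type fat. These list means were apart in opposite directions, with a difference between genotypes of -0.30 that was not tested. Over genes rather than means, the Mgl2-DTR median was 0.09, with 7 of 12 genes above 0, and the wild-type median 0.36. Il7r, the interleukin 7 receptor, was lowest in both, at -2.27 in Mgl2-DTR and -2.78 in wild-type fat.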

How the results depend on the processing

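The count of genes called between the Mgl2-DTR depots (249) stayed within 1.5 times under no filter, other probe choices, both rescalings, other variance models and the 2-fold minimum. It was 161 with the filter at the 75th percentile, 498 at an adjusted p under 0.10, 90 with the fat arrays alone and 77 with the 4 compared arrays alone. It was 35 without both epididymal replicate 2 and inguinal replicate 1, 48 with the muscle marker mean as a covariate and 36 with muscle and duct means. The wild-type count (190) became 125, 317, 86, 10, and 71 and 60 with the covariates, in the same order. The stricter filter tests fewer genes and the smaller fits hold fewer arrays; otherwise the cause was not tested. Leaving out 1 array gave 74 (without inguinal Mgl2-DTR replicate 1) to 539 calls (without either epididymal wild-type array) in Mgl2-DTR, 73 (without inguinal wild-type replicate 2) to 1445 (without epididymal wild-type replicate 2) in wild-type mice, and 0 to 123 (without epididymal Mgl2-DTR replicate 1) for the difference between genotypes, which had 0 calls by limma with all arrays and 364 genes at an unadjusted p under 0.05. A group left with 1 array is assumed to vary like the others. The 84 called genes named by the rule kept their direction in every alternative run that included them, and 13 were called in all of these. Of the single results, 644 of 2235 lost the threshold. The run with the next brightest probe tested 12250 genes and did not include Slc27a2 or Myb, whose next probes had the opposite sign. Of the 14 called genes with a value from a next probe, 10 had the same sign on it. The 4 compared arrays alone give no test of the difference between genotypes.

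With the replicate number as a block the counts were 178, 161 and 0. Same-numbered arrays shared only a number: their deviations correlated at -0.0114 between the Mgl2-DTR fat depots and 0.0974 between the wild-type ones. The filter on the fat arrays alone, chosen after seeing the data, gave 253.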

Other observations

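The called genes below lie outside the lists and were chosen after their values were seen, so each stands for itself only, by its own limma call. Among those lower in inguinal Mgl2-DTR fat were Cfap44 and Cfap52, which belong to the ciliary axoneme, Ak7, an adenylate kinase of cilia, and Cdhr3, a cadherin of ciliated cells. Cfap44 read 6.56 and 6.16 in epididymal and 4.36 and 4.82 in inguinal fat (-1.77, SE 0.29, adjusted p = 0.0189) and Cdhr3 6.41 and 6.2 against 4.56 and 4.77 (-1.64, SE 0.23, adjusted p = 0.00792). Ak7 differed by -1.39 and Cfap52 by -0.65. Cdhr3 lost the call without inguinal replicate 1 (adjusted p = 0.0773). Cfap44 and Ak7 lost the call without any compared array but epididymal replicate 1 (adjusted p up to 0.147). Cfap52 lost the call without any of the 4 compared arrays (adjusted p up to 0.282), and without an inguinal wild-type or any liver array.

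Also lower was Pax8, a transcription factor of kidney and genital tract, which read 6.25 and 8.73 in epididymal and 4.39 and 4.12 in inguinal fat (-3.23, SE 0.65, adjusted p = 0.0413). Cdh16, the kidney cadherin, read 6.58 and 8.22 against 5.16 and 4.82 (-2.41, SE 0.43, adjusted p = 0.0279), and Pkhd1, the fibrocystin gene, 5.40 and 6.17 against 4.29 and 4.23 (-1.53, SE 0.29, adjusted p = 0.0331). All 3 were highest on epididymal replicate 2, the array with the most duct transcripts, and the part of duct RNA in them was not tested. Pax8 and Pkhd1 lost the call without any compared array but epididymal replicate 1 (adjusted p up to 0.195), and without an inguinal wild-type or any liver array. Cdh16 lost the call without inguinal replicate 1 or inguinal replicate 2 (adjusted p up to 0.153), and without any liver array. Cdhr5, a brush border cadherin, read 6.28 and 6.53 against 4.31 and 4.30 (-2.11, SE 0.30, adjusted p = 0.0089). Cdhr5 lost the call without any compared array but epididymal replicate 1 (adjusted p up to 0.0742).

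Psmb8 and Psmb9, catalytic subunits of the immunoproteasome, were higher in inguinal fat and read 7.73 and 7.48 against 8.62 and 8.64 (1.02, SE 0.20, adjusted p = 0.0374) and 7.46 and 7.16 against 8.04 and 8.14 (0.78, SE 0.14, adjusted p = 0.0244). Nlrc5, the transactivator of MHC class I genes, read 7.42 and 6.66 against 8.43 and 8.06 (1.21, SE 0.24, adjusted p = 0.0413). Psmb8 lost the call without any compared array but epididymal replicate 1 (adjusted p up to 0.211), and without a wild-type liver array. Psmb9 lost the call without any compared array but epididymal replicate 1 (adjusted p up to 0.173). Nlrc5 lost the call without any compared array but epididymal replicate 1 (adjusted p up to 0.264), and without an inguinal wild-type or any liver array. Erbb4, a neuregulin receptor, read 5.05 and 4.83 against 6.45 and 6.64 (1.61, SE 0.19, adjusted p = 0.00379), Ntrk3, the neurotrophin-3 receptor, 6.09 and 6.55 against 8.28 and 7.81 (1.73, SE 0.26, adjusted p = 0.0115), and Ugt8a, the enzyme of galactocerebroside synthesis, 5.38 and 5.40 against 6.92 and 6.41 (1.28, SE 0.20, adjusted p = 0.0159). Erbb4 kept the call without any single array. Ntrk3 lost the call without inguinal replicate 1 (adjusted p = 0.1). Ugt8a lost the call without epididymal replicate 2 or inguinal replicate 1 (adjusted p up to 0.11).

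Of the enzymes that make lipid mediators, Alox15, the 12/15-lipoxygenase of macrophages, read 8.85 and 8.09 in epididymal and 6.80 and 6.34 in inguinal fat (-1.90, SE 0.33, adjusted p = 0.0241) and Pla2g4a, the cytosolic phospholipase A2, 7.97 and 7.73 against 6.70 and 7.06 (-0.97, SE 0.16, adjusted p = 0.0174). In wild-type fat Alox15 read 8.96 and 9.70 against 5.96 and 6.43. Alox15 lost the call without any compared array but epididymal replicate 2 (adjusted p up to 0.148). Pla2g4a lost the call without inguinal replicate 1 (adjusted p = 0.129). Alox5, the 5-lipoxygenase, was lower by limma's test on its brightest probe (-1.05), while its next probe gave -0.19. Alox5 lost the call without any of the 4 compared arrays (adjusted p up to 0.206), and without any liver array.

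Among metabolic genes outside the lists, Nat8l, which makes N-acetylaspartate, read 6.67 and 6.67 against 8.20 and 7.63 (1.24, SE 0.25, adjusted p = 0.0392), Acads, the short-chain acyl-CoA dehydrogenase, 8.32 and 8.10 against 9.24 and 9.13 (0.97, SE 0.14, adjusted p = 0.00988), and Gpd2, the mitochondrial glycerol phosphate dehydrogenase, 8.25 and 7.96 against 9.15 and 8.99 (0.97, SE 0.19, adjusted p = 0.0409). All 3 were higher in inguinal fat, and on its replicate 1, the array with skeletal muscle transcripts, more than on replicate 2; the part of muscle RNA was not tested. Nat8l lost the call without any of the 4 compared arrays (adjusted p up to 0.244), and without any liver array. Acads lost the call without any compared array but epididymal replicate 1 (adjusted p up to 0.0903). Gpd2 lost the call without any compared array but epididymal replicate 1 (adjusted p up to 0.24), and without an inguinal wild-type array or a wild-type liver array. Adh7, an alcohol dehydrogenase that acts on retinol, read 4.51 and 4.37 against 5.73 and 6.18 (1.51, SE 0.18, adjusted p = 0.00387). Adh7 kept the call without any single array.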
